A study of Homo sapiens with 14 samples.

Results

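The genes of the cytosolic ribosomal proteins were examined in ChIP-seq peak lists of HL60, a cell line established from a human acute myeloid leukaemia. Members were the protein-coding genes listed as nearest to a peak whose symbol was RPL or RPS with a number and at most a closing A, X or L, or RPLP0, RPLP1, RPLP2 or RPSA. The kinases named RPS6K were left out. The rule gave 75 genes out of 13808 protein-coding genes named in the lists. They comprised 39 genes of the large (60S) subunit, 30 genes of the small (40S) subunit, and 6 further genes, among them the paralogues RPL10L, RPL22L1, RPL39L, RPL7L1 and RPS27L. RefSeq held 84 symbols that fit the rule, and 1 of the 75 members was not there under its symbol. Of the 84, 10 were named in none of the lists (RPL12, RPL26L1, RPL28, RPL30, RPL34, RPL35A, RPL3L, RPL4, RPL9 and RPS20). RefSeq held 20056 protein-coding genes, against the 13808 named, so a larger share of all genes went unnamed.

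Of the 14 samples of the series, 4 peak lists were used. Antibody sc-9140 against the corepressor SKI had been used on unmodified HL60 cells, replicates 1 and 2, and on CRISPR/Cas9 control HL60 cells, whose guide and clonal origin no label states. Antibody ab23980 against the transcription factor RUNX1 had been used on unmodified HL60 cells. All cells were grown in the same serum-containing medium and no treatment is named. The other 10 samples, cells with SKI knocked out among them, were not analysed here, and no peak was checked against cells that lack SKI. The SKI lists held 54841 peaks (unmodified, replicate 1), 14431 peaks (unmodified, replicate 2) and 14019 peaks (control), and the RUNX1 list held 5581. Of these, 19311, 7566, 6733 and 1313 carried the class the authors call tss, for which the file header states 1250 bp around a transcription start site (TSS). The row numbers of the replicate 1 list run to 75197 and 72.9% of them are present. A gene without a peak is therefore a gene without a listed peak, and gene expression and cell identity cannot be read from these lists. Each list is a single library, so no test between groups was made, and the replicate check for a gene is its recurrence across lists.

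Ribosomal proteins bind the ribosomal RNAs to form the small subunit, which decodes messenger RNA, and the large subunit, which joins amino acids. Their genes are among the most highly transcribed in dividing cells, and their promoters commonly start in a pyrimidine-rich tract. Inherited loss of a copy of several of them causes a failure of red cell production. SKI is brought to DNA by partners such as SMAD proteins, whereas RUNX1 binds DNA directly.

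The proximal promoters of 6 members are shown because the results turn on these genes. RPL24, RPS3A and RPL22L1 had the best lowest percentile of SKI fold enrichment over the 3 lists, RPS3A and RPS26 lay under RUNX1 peaks, and RPL10L and RPS29 had no tss-class SKI peak listed under their own name. RPS26 was added after its values were seen. Each run is 150 bases on the strand of the gene, 5′ to 3′, from 140 bases before the RefSeq start, with coordinates on GRCh38.p14. Capitals mark the matches to the motifs searched: TGTGGT (RUNX core), CAGACA (SMAD-type), GTCTAGAC (the SMAD palindrome), TTCCGG (ETS-type), AAGATGG (YY1-type), CTTTCC (a pyrimidine tract), CTCTTT (another such tract) and the TATA box TATAAA, on either strand.
RPL24 (chr3:101686709-101686858, minus strand): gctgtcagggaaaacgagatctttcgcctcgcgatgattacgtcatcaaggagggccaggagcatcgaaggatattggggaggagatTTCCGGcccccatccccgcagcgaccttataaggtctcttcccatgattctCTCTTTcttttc
RPS3A (chr4:151099488-151099637, plus strand): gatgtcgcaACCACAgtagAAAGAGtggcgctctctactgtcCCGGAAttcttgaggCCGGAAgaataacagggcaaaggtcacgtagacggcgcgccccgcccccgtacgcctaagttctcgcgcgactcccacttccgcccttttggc
RPL22L1 (chr3:170870186-170870335, minus strand): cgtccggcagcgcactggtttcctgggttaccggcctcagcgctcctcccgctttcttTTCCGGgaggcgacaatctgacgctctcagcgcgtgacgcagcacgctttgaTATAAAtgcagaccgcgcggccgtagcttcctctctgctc
RPS26 (chr12:56041778-56041927, plus strand): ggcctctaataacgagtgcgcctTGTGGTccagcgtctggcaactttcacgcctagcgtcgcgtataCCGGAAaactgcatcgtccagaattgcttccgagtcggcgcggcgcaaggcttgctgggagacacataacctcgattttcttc
RPL10L (chr14:46651772-46651921, minus strand): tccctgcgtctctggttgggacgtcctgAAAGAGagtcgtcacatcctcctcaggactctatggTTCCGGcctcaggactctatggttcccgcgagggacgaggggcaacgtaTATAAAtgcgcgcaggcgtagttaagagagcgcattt
RPS29 (chr14:49598701-49598850, minus strand): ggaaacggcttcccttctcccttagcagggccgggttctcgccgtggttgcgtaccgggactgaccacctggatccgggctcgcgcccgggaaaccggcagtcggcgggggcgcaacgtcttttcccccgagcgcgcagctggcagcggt

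With the RefSeq start as position 0, RPL24 held TTCCGG at -53 and CTCTTT at -2. RPS3A held the reverse complement of the RUNX core (ACCACA) at -131 and at -249, the latter outside the printed run, and the reverse complement of TTCCGG at -98 and -83. RPS26 held TGTGGT at -117. RPL22L1 and RPL10L each held TATAAA, at -30 and -27. No searched motif lay in the printed run of RPS29. These are letter matches, not measured binding sites.

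SKI peaks of the tss class were listed for most ribosomal protein genes in the longest list and for a minority in the shorter lists. In unmodified cells, replicate 1, 68 of the 75 members had such a peak (90.7%, 95% Wilson interval 82.0 to 95.4), against 80.1% of all named protein-coding genes. In replicate 2 the count was 30 of 75 (interval 29.7% to 51.3%), against 35.8%. In the control cells it was 19 (25.3%, 16.9 to 36.2), against 33.1%. The intervals cover counting error over genes only. In the 2 short lists the members' shares lay near the share of all genes, which fell inside the members' interval both times. In replicate 1 the members' share was above it, but that list names most genes. With peaks of any class, 71 members had a peak in replicate 1 (94.7%, against 98.0%). The counts were 31 in replicate 2 (41.3%, against 45.9%) and 21 in control cells (against 44.4%). As shares of named genes, these lay below the share of all genes each time. A gene is named only through a listed peak, so such shares depend on which genes are named. Out of the 84 RefSeq symbols and 20056 RefSeq genes, the members' share was higher in replicate 1 (71 against 13532 genes). It was also higher in replicate 2 (31 against 6341) and lower in control cells (21 against 6131).

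A tss-class peak in all 3 SKI lists was found for 13 members (17.3%, 10.4 to 27.4), against 24.1% of all named protein-coding genes, a value inside the interval. Out of the 84 RefSeq symbols and 20056 RefSeq genes the counts were 13 and 3327, and those shares lay closer together. Among the 13 were RPL22, RPL22L1, RPL24, RPL27A, RPL3, RPL36, RPL6, RPLP2, RPS14, RPS15, RPS19 and RPS3A. A further 18 members had such a peak in 2 SKI lists and 42 in 1 list, so that 73 of the 75 (97.3%) had at least 1, against 82.9%. Over the 2 unmodified lists alone, 27 members (36.0%) recurred, against 33.9%. By subunit, 7 of 39 large-subunit genes, 5 of 30 small-subunit genes and 1 of the 6 further genes were in all 3 lists. The subunits were thus called at similar rates, 17.9% and 16.7%.

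**Figure D1:**
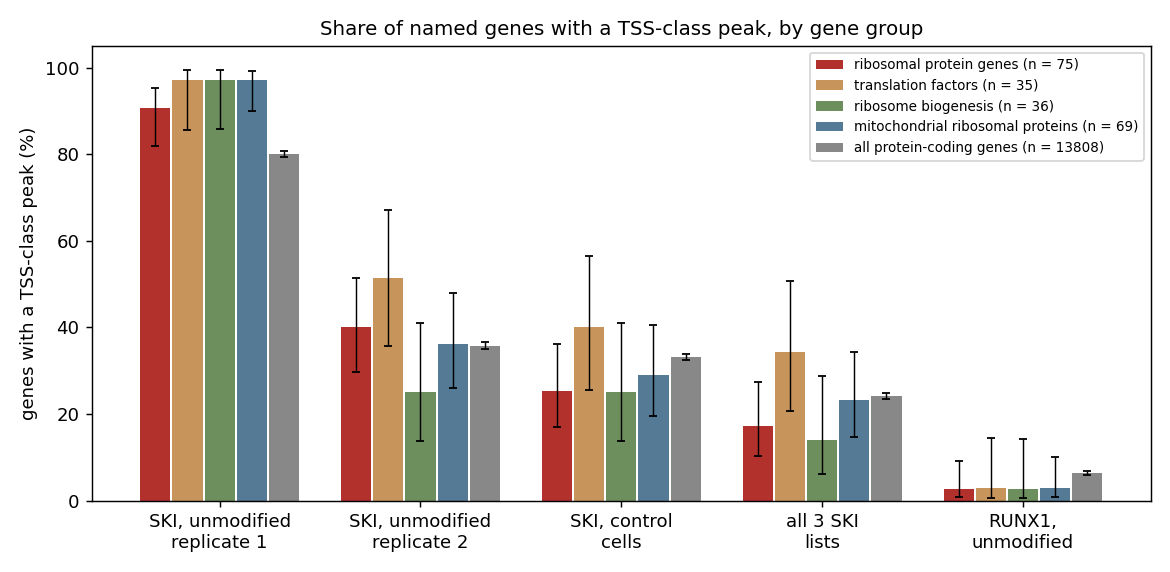
Share of named genes (%, vertical axis) with a tss-class peak in each list and in all 3 SKI lists, for ribosomal protein genes, other translation gene groups and all protein-coding genes, with 95% Wilson intervals as error bars. Ribosomal protein genes stand at 90.7% in replicate 1, 25.3% in the control list and between them in replicate 2, and their intervals include the value of all genes in the 2 shorter lists.

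Fold enrichment, the authors' own ratio of a peak over background, was used to rank peaks within a list. A percentile of 0 is the weakest and 100 the strongest of all tss-class peaks of that list. The ribosomal protein peaks ranked low in all 3 SKI lists. Their median percentile was 41.8 in unmodified cells, replicate 1 (quartiles 22.1 and 59.1, 85 peaks), 28.9 in replicate 2 (13.2 and 51.7, 31 peaks) and 22.0 in the control cells (8.87 and 31.4, 22 peaks). The tss-class peaks of all protein-coding genes had medians of 50.1, 48.5 and 48.1. On the scale of fold enrichment, member peaks had medians of 16.9, 7.10 and 7.19, against 19.6, 9.35 and 10.4 for all tss-class peaks. When every list was cut to the 5581 peaks of smallest p-value, 4, 4 and 3 members kept a tss-class peak, and the control median was then at percentile 63.9.

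Few ribosomal protein peaks were in the strongest ranks. In replicate 1, 4 of 85 member peaks lay in the top 10% (4.71%, RPL24, RPL22L1 and RPS3A among them), and 0 of 31 and 0 of 22 did in the other SKI lists. Of the peaks of all protein-coding genes, 9.60%, 9.40% and 8.96% did, and the counts of 0 rest on few member peaks. The lowest 25% of the ranks held 25 of 85 member peaks (29.4%), 14 of 31 (45.2%) and 13 of 22 (59.1%). Of the peaks of all protein-coding genes it held 24.6%, 25.8% and 26.1%. Other translation gene groups were similar in replicate 1. There the top 10% held 2.0% of translation factor, 4.88% of ribosome biogenesis and 5.26% of mitochondrial ribosomal protein peaks. The lowest 25% held 28.0%, 29.3% and 31.6% in that order. For replicate 2 it held 44.4%, 36.4% and 26.9%. For the control list it held 33.3%, 8.33% and 23.8%. These shorter-list shares lay below the members', closely for translation factors in replicate 2. Tag counts, the number of sequenced fragments under a peak, gave members the same order of lists with smaller distances from the middle. The members' median percentiles by tags were 47.4, 36.3 and 29.7. Median tags per member peak were 152, 48 and 46, against 176, 57 and 60 for protein-coding genes. Member peaks were 1058, 500 and 673 bp wide at the median, against 1168, 512 and 753 bp.

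**Figure D2:**
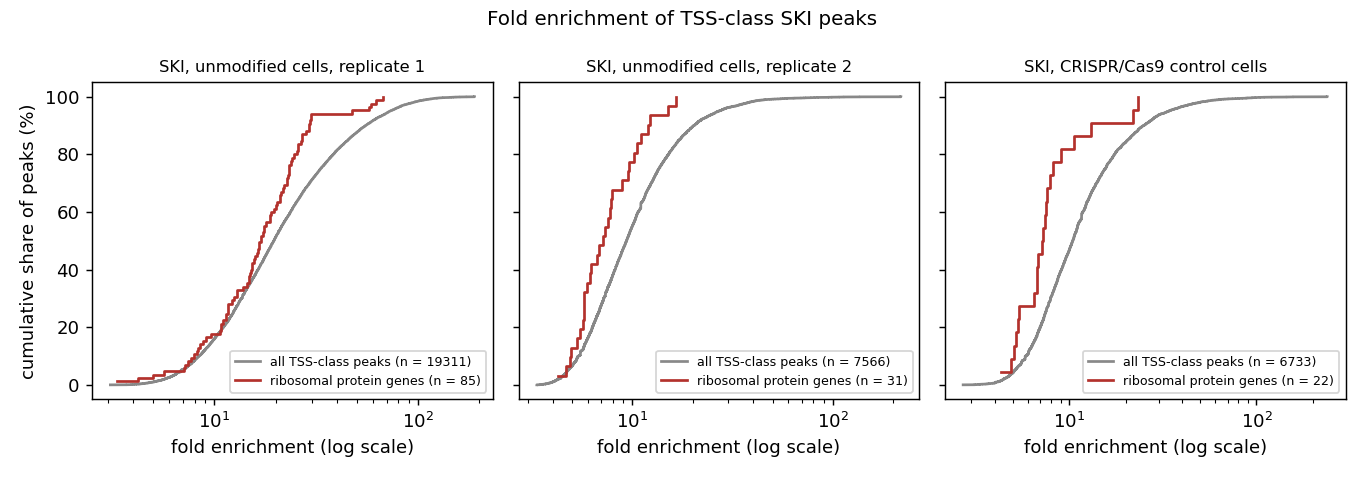
Cumulative share of tss-class SKI peaks (%, vertical axis) up to a given fold enrichment (log axis), for ribosomal protein genes and for all tss-class peaks, 1 panel per list. The ribosomal protein curve lies mostly to the left, with medians of 16.9, 7.10 and 7.19 against 19.6, 9.35 and 10.4.

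Among the genes of the large subunit, RPL24, which encodes a protein near the bridge between the subunits, carried the strongest recurrent peak. Its fold enrichments were 67.3 in replicate 1 (546 tags), 16.5 in replicate 2 (106 tags) and 21.8 in control cells (100 tags). These ranked 1228 of 19311, 1226 of 7566 and 895 of 6733 tss-class peaks. The summits lay at -183, -132 and -181 bp from the TSS, where a minus sign marks upstream, and the replicate 1 peak spanned chr3:101405284-101406214 on hg19. The RPL24 peak thus stood above percentile 80 in every SKI list, and RPL24 alone among the members did so.

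The other recurrent large-subunit genes ranked lower. RPL6 had fold enrichments of 24.1, 9.53 and 8.18 in the order replicate 1, replicate 2 and control, at percentiles 60.8, 51.6 and 32.1. These belong to a site at chr12:112856444-112857566 in replicate 1. Another RPL6 site, at chr12:112846710-112847651, had tss-class peaks of 10.8 (percentile 18.9) in replicate 1 and 5.06 (percentile 4.65) in control cells. No RPL6 peak was listed at that site in replicate 2. RPL27A had 26.95, 11.95 and 7.54, at percentiles 66.3, 67.9 and 25.8, all at a site spanning chr11:8709425-8711001 in replicate 1. Another RPL27A tss-class peak, at chr11:8703669-8704662, was in replicate 1 only (12.95, percentile 27.5). The RefSeq starts were not joined to hg19, so the main promoter among these sites is not named here. By their strongest peaks, both genes were in the upper part of the 2 unmodified lists and in the lower part of the control list. RPL22, whose loss or mutation is known from T-cell leukaemias, had 2 groups of tss-class peaks in all 3 lists, at chr1:6268400-6270203 and chr1:6259137-6261504 in replicate 1. Its strongest peaks had fold enrichments of 16.5, 5.95 and 7.27, at percentiles 40.4, 15.8 and 22.8. The replicate 1 value belongs to another RPL22 peak that was in that list only, at -759 bp from a listed start.

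RPL36 and RPL3 were at the low end of the recurrent genes. RPL36 ranked at percentile 66.7 in replicate 1 (fold enrichment 27.1, 2 bp from the TSS) but at 12.9 and 6.74 in the other lists. Its strongest peaks there lay 1322 and 1144 bp downstream of the TSS. A wide RPL36 peak of 3173 bp in replicate 1 covers both positions. RPL3, which encodes a protein at the peptidyl transferase centre, had fold enrichments of 17.6, 5.68 and 4.32 at percentiles 44.0, 12.4 and 1.46, with 439, 114 and 31 tags. These RPL3 peaks had their summits within 40 bp of the TSS and ranked below the middle of their list.

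Of the stalk proteins, which recruit elongation factors to the large subunit, RPLP2 recurred in all 3 SKI lists, with fold enrichments of 20.9, 10.1 and 7.60 at percentiles 53.6, 56.0 and 26.7. RPLP1 had a single peak, in replicate 1 (25.8, percentile 64.2, 26 bp downstream). RPLP0 had a tss-class peak in replicate 2 only (4.87, percentile 5.79). A replicate 1 peak at the same promoter (fold enrichment 12.6, 211 tags) is listed for the antisense gene PXN-AS1. The stalk genes therefore differed in how often they were listed, from 1 to 3 lists.

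RPL5 and RPL11, which with a ribosomal RNA hold back MDM2 when ribosome assembly fails and are mutated in Diamond-Blackfan anaemia, were listed in replicate 1 alone. Their fold enrichments were 12.2 and 14.5, at percentiles 24.4 and 33.6. RPL10, mutated in some T-cell leukaemias, had 2 tss-class peaks in replicate 1. The stronger (47.5, 581 tags), at chrX:153615893-153619331, lay at -1728 bp from a listed start. The weaker (26.5, 255 tags), at chrX:153625652-153627553, lay at -61 bp from a different listed start. A replicate 2 peak at -1761 bp (12.9, 39 tags) carries the class upstream and so was not counted. RPL8 had 1 peak, in replicate 1, with a fold enrichment of 12.9 and percentile 27.3. RPL19 had tss-class peaks of 22.7 in replicate 1 and 11 in replicate 2, and none in the control list. A stronger site lay 4915, 4903 and 4865 bp downstream of a listed RPL19 start, where the fold enrichment was 50.05, 24.98 and 11.8. Most of these large-subunit genes thus rested on the longest list, and the RPL19 site that recurred in all 3 lists was not at the promoter.

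Among the small-subunit genes, RPS3A had the best lowest percentile over the 3 SKI lists. Its fold enrichments were 58.4 (493 tags) in replicate 1, 12.3 (94 tags) in replicate 2 and 13.1 (67 tags) in control cells, at percentiles 91.1, 69.4 and 66.6. The summits lay at -191, -123 and -297 bp from the TSS. RPS3A was above the middle of every SKI list, together with RPL24 and RPL22L1, and no other member with a peak in all 3 was. RPS14, whose loss of a copy underlies the anaemia of a myelodysplastic syndrome, had fold enrichments of 29.8, 14.98 and 7.91, at percentiles 70.7, 79.7 and 29.4. Its summits lay at -321, -310 and -296 bp. RPS14 also had the most peaks of any member, 8 in replicate 1. A site at -11672, -11640 and -11572 bp from RPS14 was in all 3 lists, with fold enrichments of 45.4, 14.6 and 6.51, above the promoter peak in replicate 1 and below it in the others. In replicate 2 the RPS14 promoter peak ranked above that of RPS3A.

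RPS19, the gene most often mutated in Diamond-Blackfan anaemia, had weak peaks in all 3 lists. Its fold enrichments were 17.5, 4.23 and 6.73, at percentiles 43.5, 1.88 and 17.3. RPS15, known to be mutated in chronic lymphocytic leukaemia, had 29.2, 8.87 and 6.51, at percentiles 69.8, 46.2 and 15.2. RPS19 and RPS15 both ranked higher in replicate 1 than in either other list.

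RPS24 and RPS26, also known from Diamond-Blackfan anaemia, were listed differently. RPS24 had promoter peaks of 17.0 and 7.80 in the unmodified lists and none in the control list, while an intronic site 5856, 5793 and 5795 bp downstream of a listed start was in all 3 (30.0, 9.48 and 10.7). RPS26 had a tss-class peak under its own name in replicate 2 only (10.52, percentile 59.1). RPS6, the substrate of S6 kinases, was listed in replicate 1 (16.9, percentile 41.8), as were the ubiquitin fusion gene RPS27A (11.7, percentile 22.1) and RPSA, which also encodes a laminin receptor (23.2, percentile 58.9). RPS18 had the weakest member peak, of 3.34, which ranked 19309 of 19311 and lay at -1347 bp. The small subunit thus spanned nearly the whole range of ranks in replicate 1.

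Of the paralogues, RPL22L1, which can take the place of RPL22 in the ribosome, ranked high in replicate 1 and in the control list. Its fold enrichments were 61.9 (468 tags), 9.56 (77 tags) and 23.4 (76 tags), at percentiles 92.3, 51.8 and 88.7. The summits lay 72, 35 and 55 bp downstream of the TSS. The value of 23.4 was the highest of any member in the control list. RPL22L1 ranked above RPL22 in every SKI list. RPS27L (21.3, percentile 54.8), RPL39L (20.2, percentile 51.9) and RPL7L1 (10.8, percentile 18.9) were listed in replicate 1 alone. RPL10L, a retrogene copy of RPL10 used mainly in the testis, had no promoter peak, only an intergenic peak at -35072 bp in replicate 1 (14.2, 62 tags).

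**Figure D3:**
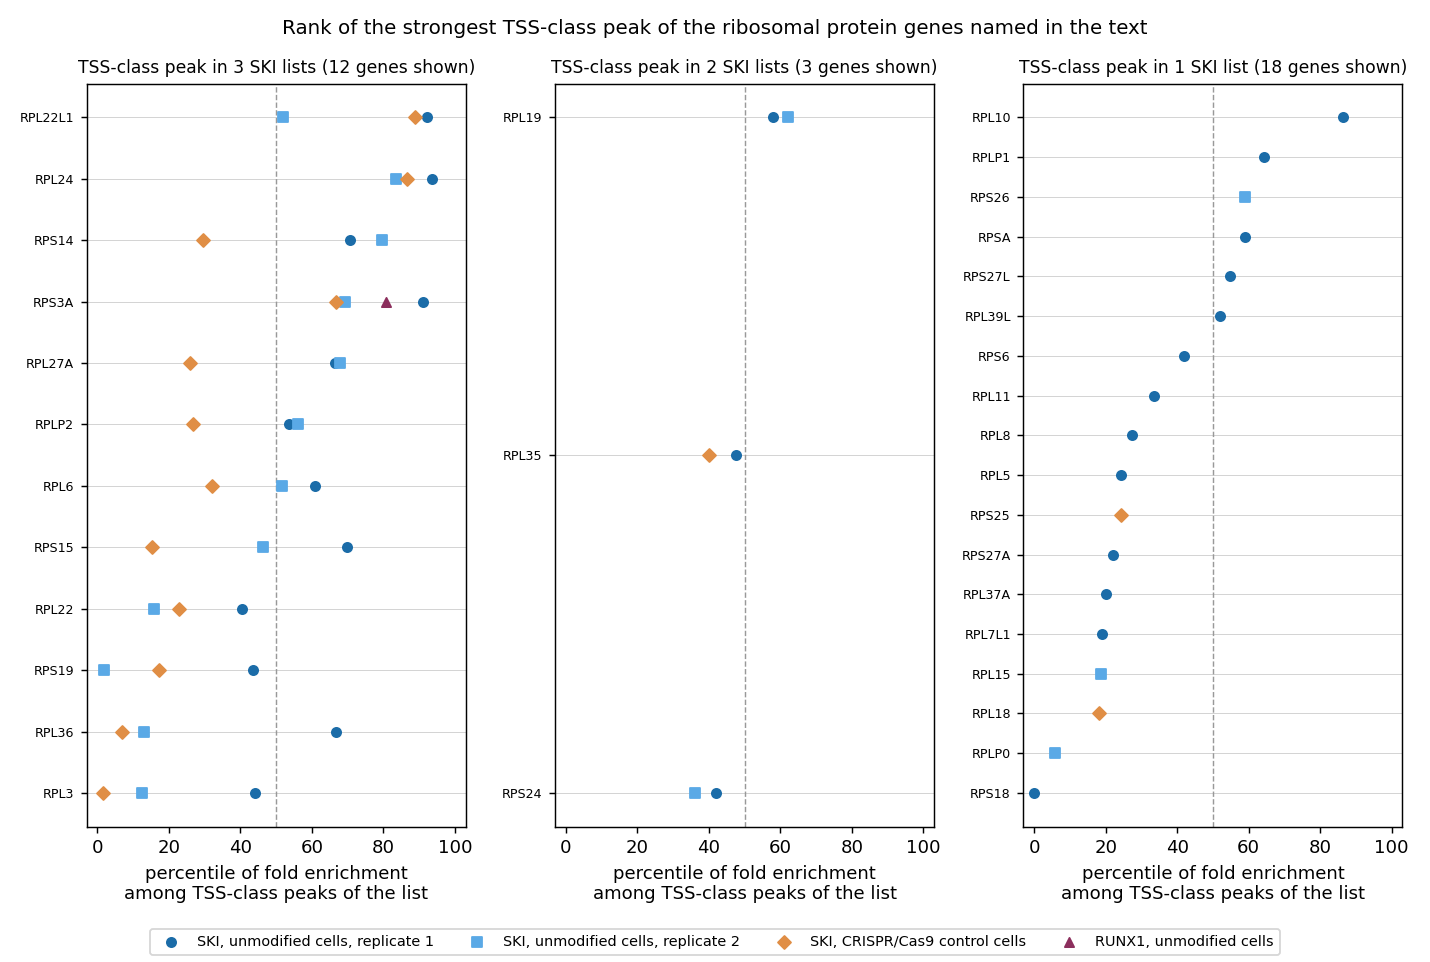
Percentile of fold enrichment of the strongest tss-class peak of each ribosomal protein gene named in the text among all tss-class peaks of its list (horizontal axis, dashed line at 50), with genes split by the number of SKI lists they were in and 1 marker shape per list. RPL24, RPS3A and RPL22L1 stand to the right of the line in all 3 SKI lists, and RPS18 stands at 0.01.

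Members listed in more SKI lists had stronger peaks in replicate 1. The median percentile there was 36.5 for the members in 1 list (37 with a replicate 1 peak), 48.7 for those in 2 lists (18) and 66.3 for those in all 3 (13). The corresponding median fold enrichments were 15.3, 19.1 and 26.9. The ranges overlapped, since members in 1 list reached 57.7 and members in all 3 started at 16.1. Recurrence rose with rank over all protein-coding genes too. Of those in replicate 1, 8.49% below percentile 25, 22.7% from 25 to 50 and 61.1% from 50 were also in replicate 2. Ranks of the strongest peak were related across lists, with Spearman's rho at 0.53 for the pair of unmodified lists (27 members), 0.63 between replicate 1 and control (17) and 0.75 between replicate 2 and control (13). Over all protein-coding genes the values were 0.72, 0.67 and 0.62. These are descriptions across genes, which share their libraries.

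The overlap of the control list with the unmodified lists at ribosomal protein promoters varied with peak strength. Of the 68 members with a tss-class peak in replicate 1, 27 (39.7%) were also in replicate 2 and 17 in the control list. For all protein-coding genes the shares were 42.3% and 39.0%. Among genes in the upper part of replicate 1 (percentile 50 and above), 9 of 31 members (29.0%) were in the control list, against 57.4% of all genes. From percentile 25 to 50 it was 7 of 23 (30.4%), against 18.9%, and below 25 it was 1 of 14 (7.14%), against 7.07%. In replicate 2 the 31 members of the upper part gave 17 (54.8%), against 61.1%. Of the 30 members in replicate 2, 13 (43.3%) were in the control list, against 70.2%. In the upper part of replicate 2 this was 7 of 9 (77.8%), against 80.6%, so the members below it held the lower share. In the reverse direction 13 of 19 (68.4%) were, against 75.9%. As the control cells are 1 library, the genotype and the library cannot be told apart.

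Member peaks sat close to the TSS. A few tss-class summits lay beyond the 1250 bp of the header, as far as 2622 bp (RPL3, replicate 1), and were kept as classed. The median deposited distance was -32 bp in replicate 1, -10 bp in replicate 2 and 9.5 bp in control cells, against -11, -6 and 0 bp for protein-coding genes. Within 250 bp of the TSS lay 67 of 85 member peaks (78.8%), 29 of 31 (93.5%) and 18 of 22 (81.8%), against 64.1%, 70.2% and 64.1%. This was not particular to the members. The shares were 80.0%, 94.4% and 93.3% for translation factors and 80.5%, 81.8% and 83.3% for ribosome biogenesis genes. For mitochondrial ribosomal protein genes they were 82.9%, 92.3% and 76.2%. Upstream of the TSS lay 64.7%, 64.5% and 40.9% of member peaks, against 56.6%, 54.0% and 49.9%. The strong peaks of RPL24, RPS3A and RPS14 had their summits upstream in every SKI list, and those of RPL22L1 downstream.

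**Figure D4:**
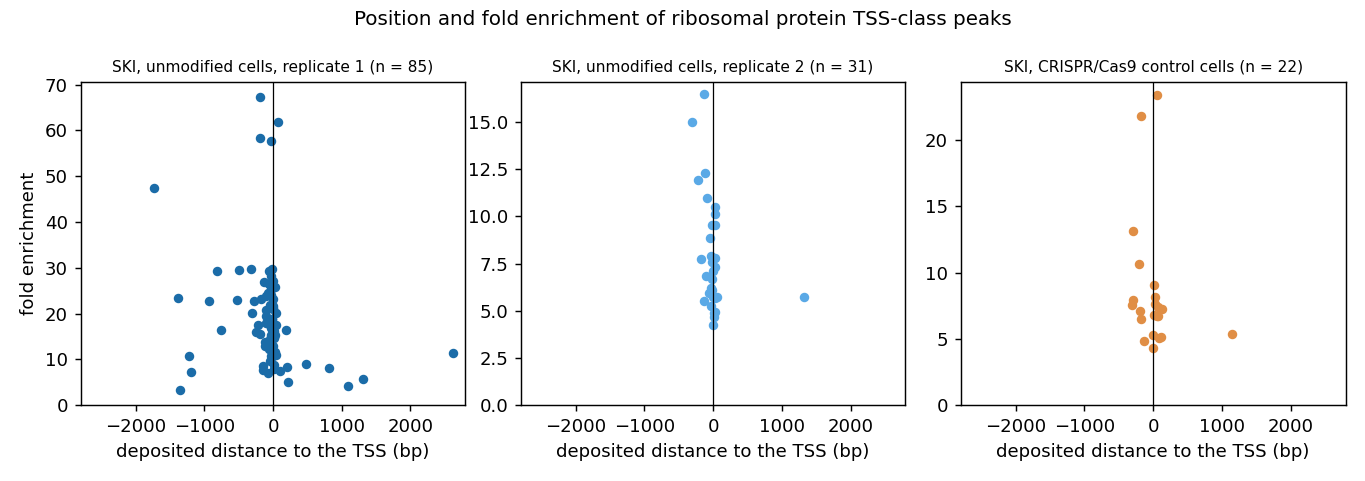
Deposited distance to the TSS (bp, horizontal axis, negative for upstream) against fold enrichment of each tss-class peak of a ribosomal protein gene, 1 panel per SKI list with its own vertical scale. Most points stand within 250 bp of the TSS, and peaks far from it are mainly in replicate 1.

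Member peaks were more often of the tss class and less often intronic than those of all genes. The tss class made up 63.9%, 81.6% and 84.6% of member peaks in the 3 SKI lists, against 44.5%, 61.8% and 58.1% for protein-coding genes. Introns held 7.52%, 5.26% and 3.85%, against 30.9%, 21.2% and 24.1%. The upstream class went the other way and held 14 of 133, 3 of 38 (7.89%) and 2 of 26 (7.69%) member peaks, against 4.53%, 3.66% and 3.44%. Members with a peak had 1.87, 1.23 and 1.24 peaks per gene, against 2.54, 1.61 and 1.57. Gene length was not compared here.

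The deposited lists give each peak to a single gene, and at 9 ribosomal protein promoters a peak within 1000 bp was listed for a neighbour. RPS29, whose protein holds a zinc ion in the small subunit, shares its promoter region with LRR1. Peaks listed for LRR1 lay there in all 3 SKI lists, with fold enrichments of 11.4, 5.50 and 6.34, so that RPS29 had no tss-class peak under its own name. RPL15 (listed for NKIRAS1), RPL18 (SPHK2), RPL35 (ARPC5L), RPL37A (AC098820.3), RPLP0 (PXN-AS1), RPS25 (TRAPPC4) and RPS26 (RP11-603J24.4) were among the others. At RPS26 the antisense gene took peaks of 29.8 in replicate 1 (280 tags) and 5.81 in control cells (57 tags). TSS positions were therefore rebuilt from the deposited distances, an alternative chosen after seeing the data. Counting any peak whose centre was at most 1000 bp from such a position, 71, 34 and 22 members had a SKI peak, against 80.2%, 37.2% and 34.2% of all genes, that is 94.7%, 45.3% and 29.3% of members. In all 3 lists there were 18 members (24.0%), against 26.1%. The count gained RPL15, RPL18, RPL35, RPS25, RPS26 and RPS29 and lost RPL36.

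Few ribosomal protein genes had a RUNX1 peak, but for the tss class the share of all genes lay inside the members' interval. The RUNX1 list named 2 members (2.67%), RPS3A among them, against 17.1% of all protein-coding genes for peaks of any class and 6.34% for the tss class. With 75 members the 95% Wilson interval was 0.734 to 9.21%, which includes the tss-class value and lies below the value for any class. The RPS3A peak (chr4:152020203-152020940 on hg19) had a fold enrichment of 31.6 and 111 tags and ranked 255 of 1313. Its summit lay at -211 bp from the TSS listed in the files, and the ACCACA matches of the RefSeq promoter are at -249 and -131 from the start given there. RPS3A had SKI peaks in all 3 lists, and the RUNX1 peak overlapped each of them by at least 1 bp.

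At RPS26 a RUNX1 peak listed for the antisense neighbour (chr12:56435314-56435916) had a fold enrichment of 8.60 and 41 tags, at percentile 9.79 of the RUNX1 list. With rebuilt TSS positions RUNX1 peaks thus lay at 3 of 75 members, against 5.87% of all genes. Of the SKI peaks listed for members, 2 of 133, 3 of 38 (7.89%) and 2 of 26 (7.69%) overlapped a RUNX1 peak, against 8.47%, 20.2% and 23.8% of the SKI peaks of all protein-coding genes. Restricted to the tss class the shares were 2.35%, 9.68% and 9.09%, against 6.20%, 11.3% and 13.8%.

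Promoter sequences of the 300 bases around a RefSeq start were matched to 60 of the 75 members, which gave 74 promoters because some genes have several starts. Where such starts lie close together, the same motif copy is counted once per start, as for CAGACA at RPL13 and TGTGGT at RPL11. TTCCGG on either strand was in 54.1% of them, against 17.2% of all 35116 promoters of the table and 21.2% of those of protein-coding genes. CTTTCC was in 48.6%, against 26.3% and 26.4% in the same order, and CTCTTT in 39.2%, against 20.9% and 18.8%. These letters can overlap, since CTCTTT can run into CTTTCC and CTTTCC into TTCCGG, so the shares are not independent. TGTGGT was in 23.0%, against 13.1% of all promoters and 11.3% of those of protein-coding genes. CAGACA was in 23.0%, against 16.9% and 15.2%, and AAGATGG in 10.8%, against 5.84% and 6.04%. TATAAA was in 9.46%, against 11.5% of all promoters and 9.47% of those of protein-coding genes. GTCTAGAC was in 0%, against 0.202% and 0.216%. Mean GC content was 59.0%, against 57.5% for all promoters and 60.9% for those of protein-coding genes.

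The share with the ETS-type letters was similar whatever the SKI recurrence. TTCCGG was in 7 of the 14 promoters of members in all 3 SKI lists, in 9 of 18 promoters of members in 2 lists, and in 24 of the 42 others. TGTGGT was in 28.6%, 11.1% and 26.2%, and CAGACA in 14.3%, 27.8% and 23.8%. With 14 to 42 promoters a group, differences of this size rest on a few promoters each.

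The other genes of translation were listed at rates of the same order. Among 35 named translation factors, 34, 18 and 14 had a tss-class SKI peak in the 3 lists and 12 in all of them (34.3%, 20.8 to 50.8). EIF4A1, the helicase that unwinds messenger RNA leaders, had fold enrichments of 82.1, 12.7 and 20.2, above RPL24 in replicate 1. EEF1A1, which carries aminoacyl-tRNA to the ribosome, had 18.8, 6.34 and 5.12. Of 36 ribosome biogenesis genes, 35, 9 and 9 had a peak and 5 were in all 3 lists. UBTF, which drives ribosomal RNA transcription, had 79.9, 34.0 and 39.5. Of 69 mitochondrial ribosomal protein genes, 67, 25 and 20 had a peak and 16 were in all 3 lists (23.2%, 14.8 to 34.4). RUNX1 tss-class peaks were listed for 1 translation factor (2.86%), 1 biogenesis gene (2.78%) and 2 mitochondrial ribosomal protein genes (2.9%). The share of the cytosolic members was 2.67%. The intervals of these groups for tss-class SKI peaks overlapped those of the ribosomal protein genes in each SKI list. With so few genes a group, such overlap does not show that the rates are alike. Median percentiles of the SKI peaks of these groups ran from 25.9 to 54.1, with only the biogenesis genes in the control list above 50.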

How the data were processed

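ChIP-seq peak lists of 4 HL60 samples were used, grouped by sample title. The submitters' processing notes name the builds hg19 and GRCh37 and, with no roles, the tools deepTools, MACS 1.4, Bowtie2 and bcl2fastq. Peaks were listed per sample. The control library, the sequencing depth and the filter of each list were named in no source used here. Per the file headers, the deposited values of a peak are its −log10 p-value, its fold enrichment as a ratio and its count of tags. The lowest −log10 p was 5.00. The FDR column was left aside because no header gives its scale. Position class, nearest gene and signed TSS distance were read as deposited.

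Each tss-class peak was given its percentile of fold enrichment among all tss-class peaks of its list, with ties at mid-rank. Counts of members were set beside the share of all 13808 named protein-coding genes, with 95% Wilson intervals. No test was run, since each list is 1 library. Rebuilt TSS positions were the median, per transcript, of the summit less the signed distance. Motifs were searched as exact letters on both strands of RefSeq promoters (GRCh38.p14), which were not joined to hg19 positions. The functions for percentiles and rebuilt positions were tested on simulated data. Chromosome 8 held only 1.23% to 2.65% of the peaks of a list, and how fully the lists cover it is not known here. Of the genes there, RPL7 and RPL8 were listed in replicate 1 alone and RPL30 and RPS20 in no list. The members and gene lists were chosen with earlier results of these data known. Named genes were the 8 members with the best and the 5 with the poorest worst percentile over the SKI lists, those with a RUNX1 peak, genes of set roles, the paralogues and the members with no tss-class peak. Others were named after their values were seen. Some members that these rules select are not reported here. Alternatives were a stricter p-value, lists of equal length, other distance and class rules, leaving out each SKI list, other ranked measures and canonical genes alone. Scripts ran on matplotlib 3.10.9, scipy 1.17.1, pandas 2.3.3, numpy 2.4.6 and Python 3.11.15.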

Additional observations from a re-analysis of the deposited data

How the results depend on the processing

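Of 63 values recomputed under an alternative, 53 stayed within 1.5 times the count or 1 SD over the SKI lists and 10 did not. When every list was cut down to the 5581 peaks of smallest p-value, ties by fold enrichment, the ribosomal protein genes with a tss-class peak numbered 4 and 4 in unmodified cells, replicates 1 and 2, and 3 in control cells, with 2 in all 3 lists. All were below the shares of protein-coding genes, 14.1%, 13.5%, 12.6% and 7.06%. The median percentile of the 3 control peaks was then 63.9, and that of the 4 replicate 1 peaks 51.2. In the other 19 of 21 alternatives the median stayed below 50. At a −log10 p of at least 10, 17 members (22.7%, against 27.9%) were left in replicate 2 and 7 (9.33%, against 20.2%) in all 3 lists. With each SKI list left out in turn, the recurrent members ranged from 13 to 27. Without the control list the count was 27 (36.0%, against 33.9%). At the main setting the position of the recurrent members below all named genes therefore rests on that list. At the stricter p-value, members were below all named genes in replicate 2 too, but above them in replicate 1 (88.0%, against 77.9%). In lists of equal length both replicates had 5.33%, against 14.1% and 13.5%. The median from peak centre to rebuilt TSS was -10.5 bp in replicate 1 and -62.0 bp in control cells, where the deposited distances gave -32 and 9.5 bp. The cause of these shifts was not tested.

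The sign of the members' difference from all named genes in replicate 2 turned at a −log10 p of 10 and in lists of equal length. It also turned within 10000 bp (41.3% against 42.1%) and with any class (41.3% against 45.9%). The median percentile was not recomputed under the alternatives for the 2 RUNX1 peaks. No paired analysis was possible because no comparison between groups was tested and the control and RUNX1 lists are single libraries.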

Other observations

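Peaks nearest to ribosomal protein pseudogenes outnumbered those of the ribosomal protein genes themselves. The lists held 402, 66 and 80 such SKI peaks and 44 RUNX1 peaks, against 133, 38, 26 and 2 peaks of the genes. The pseudogenes behind them numbered 221, 52, 65 and 36, against 71, 31, 21 and 2 genes, so the larger counts come with more loci. Few were of the tss class (39, 5, 7 and 5). They made up 0.733%, 0.457%, 0.571% and 0.788% of the peaks of their list. Pseudogene copies share sequence with their parent genes, and how the authors placed fragments that match both is not given in the sources used here.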
